A study of Mus musculus with 10 samples.

Results

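The protein subunits of the mitochondrial respiratory chain and ATP synthase that are encoded in the nucleus were followed through a weekly calorie restriction cycle in mouse liver. Members were the genes whose symbol begins as a complex I (Nduf with a, b, c, s or v and a number), complex II (Sdha to Sdhd), complex III (Uqcr, Cyc1), complex IV (Cox4 to Cox8) or complex V (Atp5) subunit, and 87 of the 17359 genes in the deposited table matched. Complex I had 39 members, 17 placed in the peripheral arm and 22 in the membrane arm, complex II had 4, complex III had 9, complex IV had 18 and complex V had 17. Ndufa4, named for complex I, was counted in complex IV, to which its protein belongs. Ndufab1 and the ATP synthase inhibitor Atpif1 did not match the symbol pattern and are given separately, and the subunits encoded in mitochondrial DNA are not analysed here.

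The 10 liver samples came from mice on a high-fat diet, which the 3 groups share, and nothing in the labels says that they are separate animals, so every p-value rests on sample-to-sample spread that may be technical. The ad libitum group (AL, n = 3) ate freely, the low-calorie group (LC, n = 4) was sampled on day 3 of the weekly cycle and the refeeding group (RF, n = 3) on day 7. The cycle cut calories by 50% (days 1 and 4) or 70% (days 2 and 3) and then let the mice eat freely, from day 5 to day 7. Poly(A)-enriched libraries without strand were sequenced, and the libraries held 13871533 to 15899479 expected counts. The labels give RNA integrity numbers as a range, 6.6 to 8.5. The sources used here do not give strain, sex, age or hour of sampling.

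The respiratory chain passes electrons from NADH (complex I) and succinate (complex II) through ubiquinone, complex III and cytochrome c to oxygen at complex IV. Complexes I, III and IV pump protons across the inner mitochondrial membrane, and complex V uses the returning protons to make ATP. Complex II also runs a step of the citric acid cycle and has no subunit from mitochondrial DNA. In liver this machinery burns electrons released by fatty acid oxidation and pays for gluconeogenesis and urea synthesis. Assembly needs subunits in matched amounts, and dedicated assembly factors that do not remain in the finished complex.

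Levels per length spread widely among members. At AL the median member that was tested lay at 370 FPKM (fragments scaled by transcript length and library depth, as deposited), with medians of 246 for complex I, 148 for complex II, 369.6 for complex III, 812 for complex IV and 643 for complex V. Cox7c, a small complex IV subunit, had the highest mean over all libraries, at 2338 ± 467 FPKM at AL (mean ± SD over the libraries of a group, here and below), followed by Atp5e, the epsilon subunit of the ATP synthase F1 part, at 1747 ± 353 FPKM. Ndufa4 and Cox6c were next by the mean over all libraries, and stood at 1594 ± 172 FPKM and 1444 ± 156 FPKM at AL. The highest complex I members were Ndufa3 of the membrane arm at 1064 ± 207 FPKM and Ndufa6 of the peripheral arm at 685 ± 92.9 FPKM, and the highest in complex III was Uqcr11 at 1207 ± 158 FPKM. The large core subunit Ndufs1, which carries iron-sulfur clusters, stood at 33 ± 3.07 FPKM, the lowest of the tested peripheral arm. In complex II the iron-sulfur subunit Sdhb was highest, at 259 ± 34.3 FPKM, and the flavoprotein Sdha lowest, at 101 ± 29.5 FPKM. Without division by length the order differed. In CPM (counts scaled to library size) Cox4i1 lay at 696 to 728 in AL libraries, above Cox7c at 440 to 613.

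**Figure D1:**
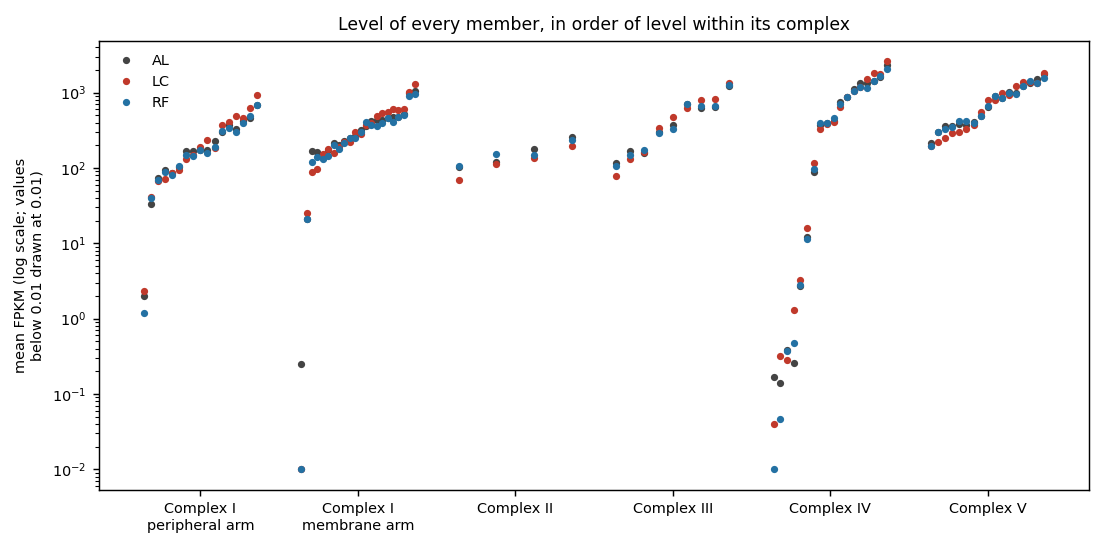
Mean FPKM of each of the 87 members (vertical axis, log scale) in the AL, LC and RF groups, ordered by level within each complex. Most members lie above 100 FPKM in every group, and the members that fall far below are mainly tissue-specific isoforms of complex IV.

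Tissue isoforms separated by several orders of magnitude. The ubiquitous Cox4i1 was at 1319 ± 85.2 FPKM at AL, while its partner isoform Cox4i2, known from lung, had 0 to 3 counts in any library. The heart and muscle isoforms Cox6a2 and Cox8b had 0 to 2 counts, whereas the liver forms Cox6a1 and Cox8a lay at 1119.6 ± 77.5 FPKM and 740.1 ± 77.8 FPKM. Cox6b2, the testis form, had 0 to 11 counts, the highest in an LC library, and Ndufs6b and Ndufb4b had 3 to 10 and 0 to 2.43 counts. These 6 genes did not pass the filter on low counts and were not tested. Cox7a1, a heart and muscle form, passed the filter at 12.2 ± 5.37 FPKM, and Ndufa4l2, a hypoxia-responsive relative of Ndufa4, at 2.67 ± 0.607 FPKM. Muscle markers summed to 1.40 to 3.72 CPM over all libraries, and hepatocyte markers to 67975 to 120372 CPM.

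On day 3 of restriction 33 of the 81 tested members were lower than at AL and 0 were higher, and 48 were not called. A gene was called when its adjusted p in edgeR's quasi-likelihood test, Benjamini-Hochberg adjusted over 12789 genes, was under 0.05. Among all genes tested 15.6% were called lower and 16% higher. The median log2 fold change was -0.27 over the members and 0.05 over all genes. DESeq2 and limma voom also called 0 members higher, and 0 were higher at an unadjusted p under 0.05. The AL and LC groups did not overlap for 33 members, 40.7% of those tested, and for 35.8% of all genes tested. In whole liver, fewer cells of a type and less RNA per cell cannot be told apart.

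How many were called lower depended on how libraries were scaled. The counts were scaled with edgeR's TMM factors (trimmed mean of M-values), which were 0.83 to 0.95 at AL and 1.06 to 1.18 at LC. With library totals alone, which moved the median of all genes to 0.36, 10 members were called lower and 10 higher. The shares of all genes called under that setting are not given here, and the 15.6% and 16% above belong to the TMM fit. The 10 lower were Ndufv2, Ndufs8, Ndufa10, Ndufc2, Ndufb4c, Sdha, Sdhb, Sdhc, Uqcrc2 and Atp5c1, all among the 33. The 10 higher were Ndufa1, Ndufa2, Ndufa5, Ndufa6, Ndufs1, Ndufs7, Uqcr10, Uqcrh, Cox6c and Atp5h. The median of the members was then 0.04, so it lay 0.32 below that of all genes, beside 0.31 below with TMM. As a share of each library's counts the members took 1.61% ± 0.125 at AL, 1.65% ± 0.0735 at LC and 1.59% ± 0.00931 at RF (SD).

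Hepatocyte markers moved with the members. Summed, they lay between 98678 and 120372 CPM in AL libraries, between 67975 and 77656 CPM in LC libraries and between 91762 and 99206 CPM in RF libraries, and 8 of 12 were lower at LC. Sinusoidal endothelium markers lay between 242 and 261 CPM in AL libraries, 371 and 402 CPM in LC libraries and 323 and 383 CPM in RF libraries, and 6 of 12 were higher at LC. None of the markers of either list was without counts in any group, and their part in the members' result was not tested. Adipocyte markers lay between 60.4 and 154 CPM in AL libraries, 10.5 and 28.9 CPM in LC libraries and 11.1 and 19.6 CPM in RF libraries, with 2 of 3 tested lower at LC. Of 12 Kupffer cell and macrophage markers 3 were lower at LC and 0 higher. Erythroid markers lay between 473 and 716 CPM in AL libraries, 274 and 407 CPM in LC libraries and 325 and 1029 CPM in RF libraries, with 2 of 5 tested lower at LC. Stellate cell markers lay between 318 and 337 CPM in AL libraries, 255 and 332 CPM in LC libraries and 379.7 and 435 CPM in RF libraries, with 6 of 10 higher at RF against LC. These counts stand beside 15.6% of all genes lower and 16% higher at LC, and 11.4% higher at RF against LC. The part of these lists in the members' result was not tested either.

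**Figure D2:**
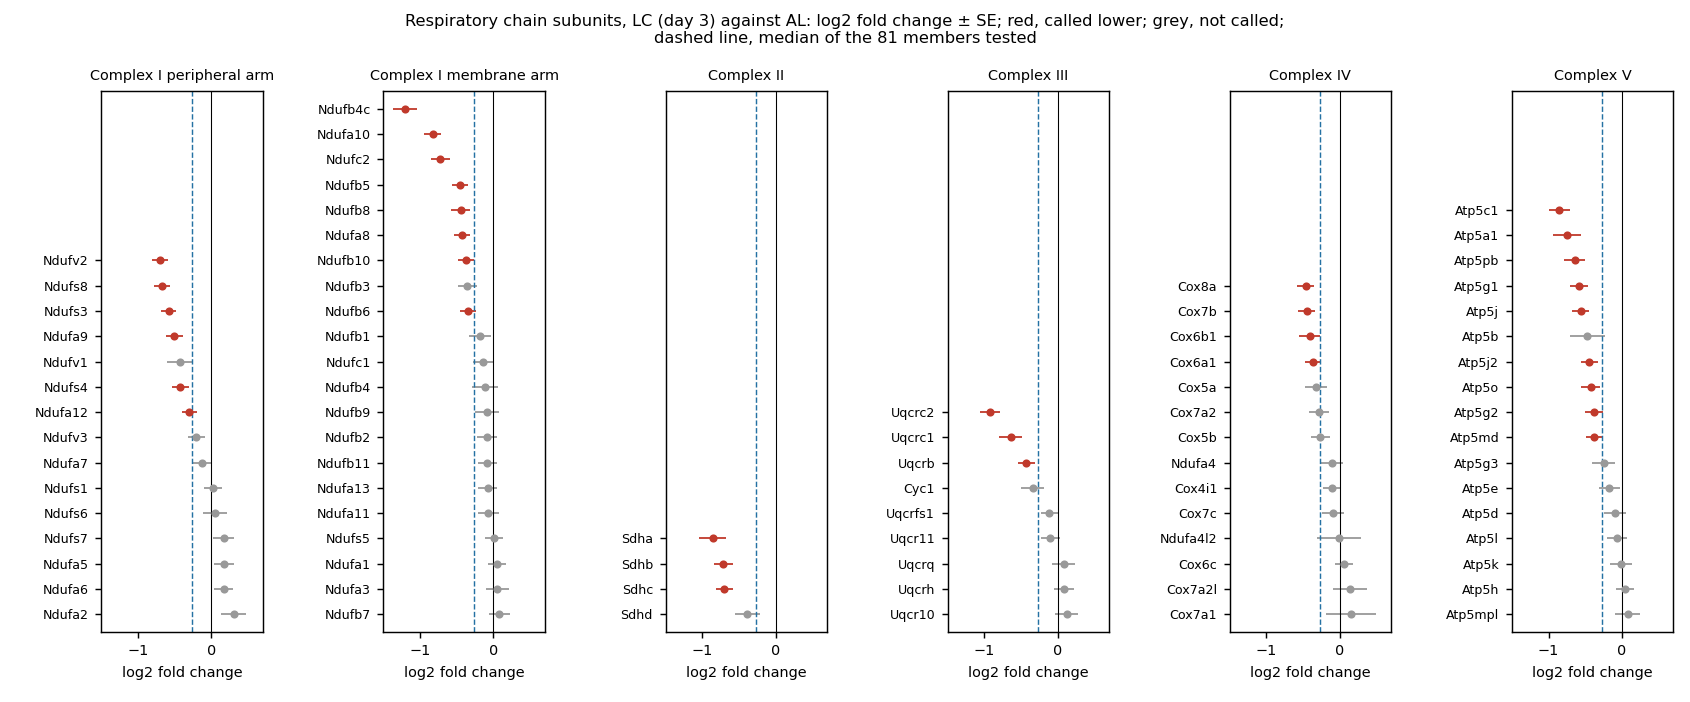
Log2 fold change of LC against AL (horizontal axis) with its SE for tested members, in 6 panels by complex; red marks a member called lower and the dashed line the median of all members. Each of the 6 panels holds members called lower, and outside complex II each also holds members at or above 0.

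Among AL libraries replicate 2 stood apart for several members, low for some large subunits and high for some small ones. Sdha was at 195 CPM there, against 325 and 370 CPM in the other AL libraries, and Atp5b at 427 against 715 and 876 CPM. Cox7c was at 613 CPM there, against 469 and 440 CPM, and Atp5e at 381 against 281 and 279 CPM. The part of RNA integrity in these values was not tested. In complex II the median of AL replicate 2 over the 4 subunits lay at -0.30 against the AL mean on the log2 scale, while the other AL libraries lay at 0.07 and 0.24. Without AL replicate 2 the test called 37 members lower at LC, beside 16.9% of all genes. Without AL replicate 3 it called 22, beside 8.98% of all genes, and without AL replicate 4 it called 21, beside 10.6%, so the count over all genes moved as well. In total 20 of the 33 stayed called whichever single library was left out.

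Complex II showed the largest median change on day 3, -0.70, and 3 of its 4 subunits were lower. Sdha, the flavoprotein that oxidises succinate (gene ID 66945), had 195, 325 and 370.1 CPM in the AL libraries, 144, 165, 160.2 and 187 CPM in the LC libraries and 280.5, 292 and 293 CPM in the RF libraries. The AL values all lay above the LC values, the lowest AL library by a small margin, and the fall was called (log2 fold change -0.86, SE 0.18, adjusted p = 0.00369). Sdhb, whose iron-sulfur clusters pass the electrons on, had 204, 245 and 268 CPM in the AL libraries, 129, 169, 134 and 152 CPM in the LC libraries and 193, 209.8 and 204 CPM in the RF libraries. Every LC library was below every AL library (log2 fold change -0.71, SE 0.14, adjusted p = 0.00215). Sdhc, a membrane anchor that binds ubiquinone with Sdhd, had 164, 189.7 and 191 CPM in the AL libraries, 106, 119.8, 121 and 101 CPM in the LC libraries and 144, 141 and 143 CPM in the RF libraries. It showed the tightest groups of the complex and fell (log2 fold change -0.70, SE 0.12, adjusted p = 0.00108). Sdhd, the other anchor, had 104, 142 and 168 CPM in the AL libraries, 81.8, 108, 106 and 128 CPM in the LC libraries and 156, 173 and 165 CPM in the RF libraries. Its AL and LC libraries overlapped and it was not called (log2 fold change -0.38, SE 0.17, adjusted p = 0.101). Under library totals alone the same 3 subunits were called lower and the complex median was -0.39.

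The peripheral arm of complex I, which takes electrons from NADH, had 6 of 16 tested members lower and a median of -0.18. Ndufv2, an iron-sulfur core subunit beside the NADH site (gene ID 72900), had 123, 136 and 139 CPM in the AL libraries, 80.9, 84.9, 80.4 and 80.0 CPM in the LC libraries and 116, 121 and 113 CPM in the RF libraries. All LC libraries sat far below all AL libraries, with the RF libraries between (log2 fold change -0.70, SE 0.11, adjusted p = 0.000602). Ndufs8, a core subunit near the ubiquinone end of the arm, had 102, 99.3 and 104 CPM in the AL libraries, 68.1, 69, 59.3 and 58.3 CPM in the LC libraries and 88.8, 83.2 and 83.2 CPM in the RF libraries. Here too the groups were separate (log2 fold change -0.67, SE 0.11, adjusted p = 0.00093). Ndufs3, a further core subunit, had 176, 170.1 and 182 CPM in the AL libraries, 117, 124, 109 and 119 CPM in the LC libraries and 137, 138 and 138 CPM in the RF libraries and was lower at LC (log2 fold change -0.58, SE 0.11, adjusted p = 0.00176). The remaining members called lower were Ndufa9, Ndufs4 and Ndufa12, between -0.51 and -0.30.

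Other core subunits of the same arm were not called. Ndufs1 had 73, 97.5 and 87 CPM in the AL libraries, 80.3, 96.1, 83.6 and 88.5 CPM in the LC libraries and 94.1, 96.9 and 93.5 CPM in the RF libraries, with all 3 groups overlapping (log2 fold change 0.02, SE 0.12, adjusted p = 0.906). Ndufv1, which holds the flavin and the NADH site, had 105, 169 and 191 CPM in the AL libraries, 103, 115, 105 and 138 CPM in the LC libraries and 146 to 153 CPM in the RF libraries. AL replicate 2 lay within the LC range and the difference was not called (log2 fold change -0.43, SE 0.18, adjusted p = 0.0813). Leaving out one library at a time moved its adjusted p between 0.00405 and 0.356. Accessory subunits Ndufa2, Ndufa5 and Ndufa6 had positive log2 fold changes of 0.30, 0.17 and 0.17, none of them called. Ndufa2 had 155, 109.6 and 115 CPM in the AL libraries, 152, 154, 116 and 203 CPM in the LC libraries and 111, 104 and 111 CPM in the RF libraries, and LC replicate 4 was the highest of all libraries.

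In the membrane arm of complex I, whose pumping core is encoded in mitochondrial DNA, 8 of 21 tested accessory subunits were lower and the median was -0.14. Ndufa10 had 216, 239 and 244 CPM in the AL libraries, 129, 140.4, 138 and 117 CPM in the LC libraries and 183, 191 and 185 CPM in the RF libraries. The LC libraries lay well below both other groups (log2 fold change -0.83, SE 0.12, adjusted p = 0.000408). Ndufc2 had 87.7, 109 and 108 CPM in the AL libraries, 66.4, 68.4, 53.6 and 57.9 CPM in the LC libraries and 90.0, 94.9 and 82.9 CPM in the RF libraries, with every LC library below every library of the other groups (log2 fold change -0.72, SE 0.13, adjusted p = 0.00146). Ndufb4c had the largest fold of any member, from 37.4, 44.9 and 47.2 CPM in the AL libraries, 22.3, 17.1, 21.6 and 13.9 CPM in the LC libraries and 29.2, 26.8 and 31.3 CPM in the RF libraries (log2 fold change -1.20, SE 0.16, adjusted p = 0.000335). It is a near copy of Ndufb4, so reads may be split between them by estimation, and Ndufb4 itself was not called (log2 fold change -0.11, SE 0.18, adjusted p = 0.666). Summed over the Ndufb4 genes the level was 140 ± 25.8 CPM at AL, 108 ± 14.9 CPM at LC and 107 ± 5.36 CPM at RF (SD). Ndufb5, Ndufb8, Ndufa8, Ndufb10 and Ndufb6 were also called, from -0.45 to -0.34. At the other end Ndufs5 (0.01), Ndufa3 (0.06) and Ndufa11 (-0.07) lay near 0 and were not called.

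**Figure D3:**
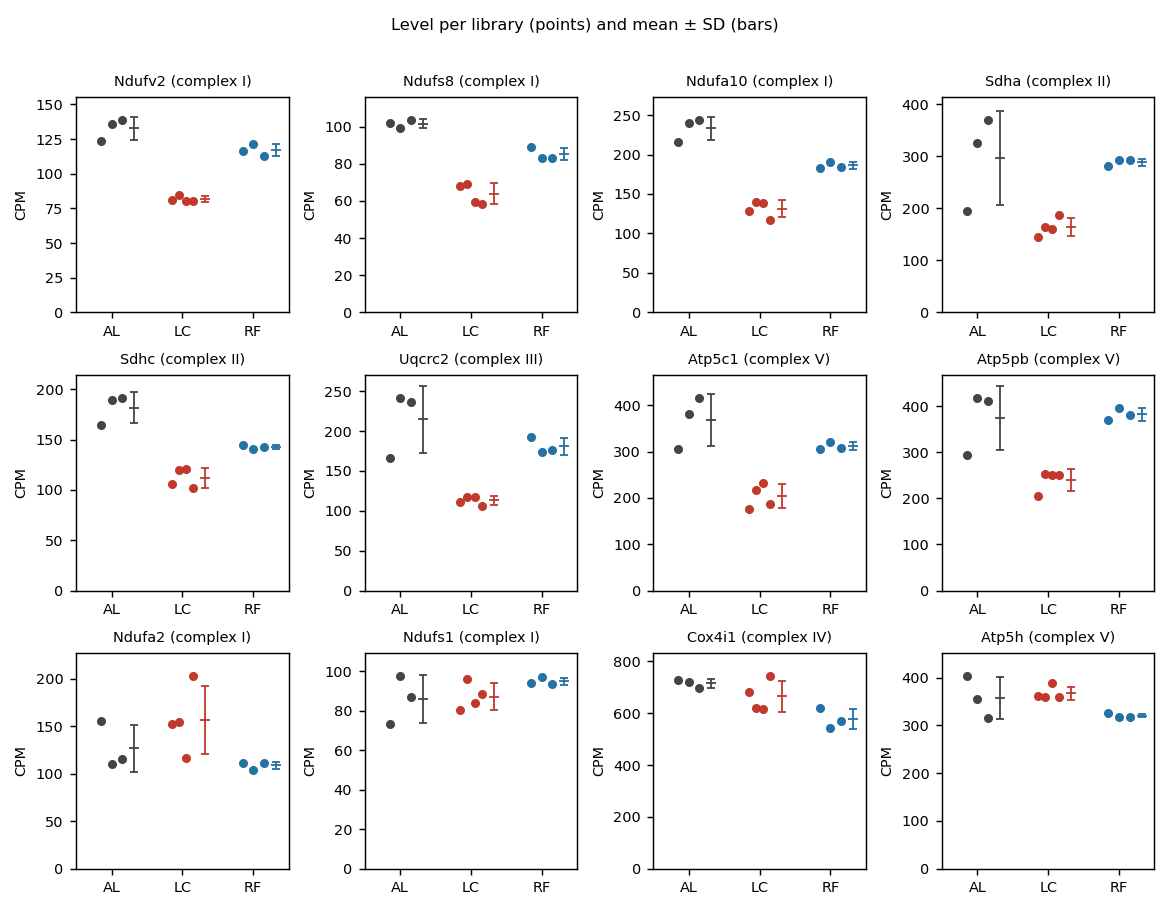
CPM scaled with TMM factors (vertical axis, from 0) in each library of the AL, LC and RF groups for 12 members, with mean and SD beside the points. The upper 8 panels show members whose LC libraries all lie below the AL libraries, and the lower 4 show Ndufa2, Ndufs1, Cox4i1 and Atp5h, whose AL and LC libraries overlap.

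Complex III, which passes electrons from ubiquinone to cytochrome c, had 3 of 9 members lower and a median of -0.11. Uqcrc2, a core protein of the matrix side (gene ID 67003), had 166, 242 and 237 CPM in the AL libraries, 111, 117, 117 and 106 CPM in the LC libraries and 193, 174 and 176 CPM in the RF libraries. No LC library reached the lowest AL library (log2 fold change -0.93, SE 0.14, adjusted p = 0.000592). Uqcrc1, its partner, had 202, 264 and 312 CPM in the AL libraries, 146, 178, 151 and 190.0 CPM in the LC libraries and 212, 218 and 224 CPM in the RF libraries and was lower (log2 fold change -0.64, SE 0.15, adjusted p = 0.00694). Uqcrb, a small subunit near the ubiquinone site, stood at 227 ± 10 CPM at AL, 169 ± 17.2 CPM at LC and 218 ± 3.72 CPM at RF (log2 fold change -0.43, SE 0.12, adjusted p = 0.0155). The redox subunits were not called. Cyc1, cytochrome c1, stood at 182 ± 40.1 CPM at AL, 144 ± 21.6 CPM at LC and 187 ± 6.54 CPM at RF (log2 fold change -0.34, SE 0.16, adjusted p = 0.119), and Uqcrfs1, the Rieske iron-sulfur protein, at 349.8 ± 32.4 CPM at AL, 324 ± 24.4 CPM at LC and 316 ± 11.1 CPM at RF (log2 fold change -0.11, SE 0.12, adjusted p = 0.51). Uqcrq, Uqcrh and Uqcr10 had log2 fold changes of 0.08, 0.09 and 0.12, not called.

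Complex IV, cytochrome c oxidase, had no member that fell by more than 0.46 on the log2 scale. Of its 14 tested members 4 were lower, and its median was -0.19. Cox8a had 235, 227 and 254 CPM in the AL libraries, 168, 186, 157 and 183 CPM in the LC libraries and 225, 205 and 208 CPM in the RF libraries, with no overlap of AL and LC (log2 fold change -0.46, SE 0.12, adjusted p = 0.00962). Cox7b had 314, 294 and 315 CPM in the AL libraries, 228, 245, 217 and 213 CPM in the LC libraries and 316, 308 and 288 CPM in the RF libraries and likewise had every LC library below all others (log2 fold change -0.45, SE 0.11, adjusted p = 0.0101). Cox6a1 stood at 353 ± 5.85 CPM at AL, 275 ± 12.3 CPM at LC and 314 ± 11 CPM at RF and Cox6b1 at 321 ± 46.3 CPM at AL, 242 ± 35 CPM at LC and 275 ± 22.9 CPM at RF, with log2 fold changes of -0.36 and -0.41. Their adjusted p values were 0.0244 and 0.0453, and of the 10 fits that left out 1 library the Cox6a1 call was lost in 3 and the Cox6b1 call in 9, with adjusted p up to 0.0674 and 0.149. With the compared groups alone neither was called, and limma voom did not call Cox6b1. Cox4i1, the largest nuclear-encoded subunit of the complex, had 728, 720.0 and 696 CPM in the AL libraries, 683, 619.8, 615 and 743 CPM in the LC libraries and 619.9, 543 and 570.0 CPM in the RF libraries (log2 fold change -0.10, SE 0.12, adjusted p = 0.544). Cox5a and Cox5b, also part of the conserved nuclear set, had log2 fold changes of -0.32 and -0.27 and were not called. Cox7c (-0.10), Ndufa4 (-0.11), Cox7a2 (-0.28), Cox7a2l (0.14), Cox7a1 (0.15) and Ndufa4l2 (-0.0045) were not called either. With library totals alone none of this complex was lower and Cox6c was higher.

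Complex V had 9 of 17 subunits lower and a median of -0.38. The table uses older symbols, in which Atp5a1, Atp5b and Atp5c1 are the alpha, beta and gamma subunits of the catalytic F1 part. Atp5c1, the rotating shaft (gene ID 11949), had 305, 381 and 416 CPM in the AL libraries, 177, 217, 233 and 187 CPM in the LC libraries and 305, 321 and 308 CPM in the RF libraries. The LC libraries lay below the other groups (log2 fold change -0.85, SE 0.14, adjusted p = 0.001). Atp5a1 had 502, 762 and 908 CPM in the AL libraries, 354, 497, 380.1 and 493 CPM in the LC libraries and 620.2, 691 and 697 CPM in the RF libraries. The lowest AL library was only just above the highest LC library (log2 fold change -0.75, SE 0.19, adjusted p = 0.00957), and without AL replicate 4 the adjusted p was 0.0603. Atp5b, which holds the catalytic sites, had 427, 715 and 876 CPM in the AL libraries, 364, 519, 400.4 and 661 CPM in the LC libraries and 656, 739 and 744 CPM in the RF libraries. Its AL replicate 2 fell within the LC range, and it was not called (log2 fold change -0.47, SE 0.24, adjusted p = 0.154). In the stalk and membrane parts Atp5pb, the b subunit of the stator, had 294, 418 and 412 CPM in the AL libraries, 205, 252, 251 and 251 CPM in the LC libraries and 369, 396 and 381 CPM in the RF libraries (log2 fold change -0.64, SE 0.14, adjusted p = 0.00509). LC replicate 1 was apart from the other 3, and all were below the AL libraries. Atp5j, coupling factor 6, stood at 401 ± 9.47 CPM at AL, 272 ± 11.1 CPM at LC and 371 ± 17.8 CPM at RF (log2 fold change -0.56, SE 0.11, adjusted p = 0.0027).

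The proton-carrying c subunit is encoded by 3 genes that make the same mature protein. Atp5g1 stood at 216 ± 27 CPM at AL, 144 ± 7.84 CPM at LC and 197 ± 7.12 CPM at RF and was lower (log2 fold change -0.58, SE 0.12, adjusted p = 0.00319). Atp5g2 stood at 92.3 ± 5.44 CPM at AL, 70.8 ± 4.09 CPM at LC and 80.9 ± 13 CPM at RF and was lower (log2 fold change -0.38, SE 0.13, adjusted p = 0.0336), though not without AL replicate 3, AL replicate 4, LC replicate 2 or LC replicate 4, with adjusted p up to 0.135. Atp5g3, the most abundant of them per length at 1341 ± 179 FPKM at AL, stood at 688 ± 83.6 CPM at AL, 580.0 ± 116 CPM at LC and 680.2 ± 12.5 CPM at RF and was not called (log2 fold change -0.25, SE 0.16, adjusted p = 0.251). Atp5j2, Atp5o and Atp5md were also called lower, from -0.44 to -0.38. Small subunits Atp5k, Atp5h and Atp5mpl had log2 fold changes of -0.0089, 0.04 and 0.08. Of the neighbours outside the symbol pattern, Ndufab1, the acyl carrier protein built into complex I, was lower (log2 fold change -0.72, SE 0.10, adjusted p = 0.000513), and Atpif1, which blocks ATP hydrolysis, was not called (log2 fold change -0.38, SE 0.19, adjusted p = 0.144).

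**Figure D4:**
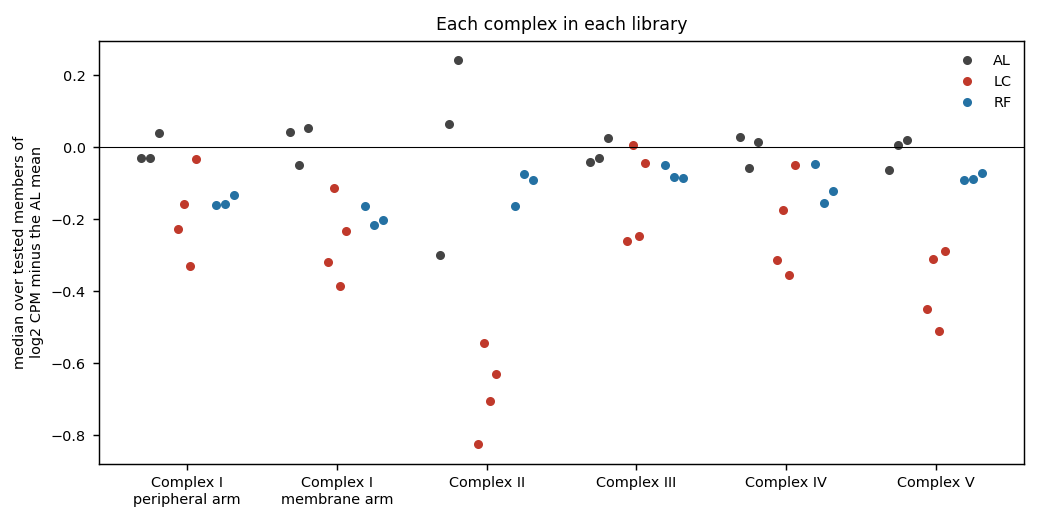
Median over each complex's tested members of log2 CPM minus the AL mean (vertical axis), 1 point for each of the 10 libraries. In complexes II and V all 4 LC libraries lie below every AL and RF library. In the other complexes the LC libraries spread into the range of the RF libraries. LC replicate 2 in complex III (0.01) and LC replicate 4 in complex IV (-0.05) also lie within the AL range.

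Within-library ratios do not depend on library scaling, and they show how subunits of the same complex parted. The pairs were chosen after the values were seen, as the lowest and highest fold of the complex I peripheral arm, of complex III and of complex V, so they are a description. Ndufv2 over Ndufa2 in expected counts ranged over 0.796 to 1.24 in AL libraries, 0.395 to 0.693 in LC libraries and 1.02 to 1.16 in RF libraries. Uqcrc2 over Uqcr10 ranged over 1.33 to 2.06 in AL, 0.593 to 1.04 in LC and 1.32 to 1.43 in RF libraries. Atp5c1 over Atp5mpl ranged over 2.60 to 3.87 in AL, 1.24 to 2.79 in LC and 2.84 to 3.00 in RF libraries. For the first and second pair every LC library was below every other library, and for the third the highest LC library passed the lowest AL library.

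Change at LC differed with transcript length among members. The median effective length (the length available to fragments, worked out from counts and FPKM) was 444 bases for tested members and 2629 bases for all genes tested. Over the 81 members the log2 fold change at LC had a Pearson correlation of -0.42 with log2 length, while over all 12789 genes it was 0.24. Genes are not independent replicates, and they share libraries and annotation. Of the 27 members of 600 bases or more 15 were lower, with a median of -0.45. All genes of that class had 15.1% lower and a median of 0.06, but they reach 100303 bases and the members 2610. In narrower bins the median of all genes was -0.28 at 512 to 724 bases, -0.27 at 724 to 1024 and -0.16 at 1024 to 1448. It was -0.07 at 1448 to 2048 bases and 0.06 at 2048 to 2896. Of the 26 members of 300 to 600 bases 11 were lower, beside 29.5% of all such genes. The medians were -0.30 for these members and -0.20 for all such genes. Of the 28 shorter members 7 were lower, beside 16.5%, with medians of -0.10 for both. When trends on length and GC content were removed, 14 members were lower and 5 higher of 79 that could be fitted, with a median of -0.06. The shares of all genes called in that fit are not given here. Complex II had 3 lower, 0 higher and a median of -0.44, and complex V had 3 lower, 1 higher and -0.23. Complex III had 2 lower, 1 higher and -0.15, complex I 4 lower, 3 higher and -0.01, and complex IV 2 lower, 0 higher and 0.06. The part of length in the result was not tested further, and the part of RNA integrity was not tested.

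**Figure D5:**
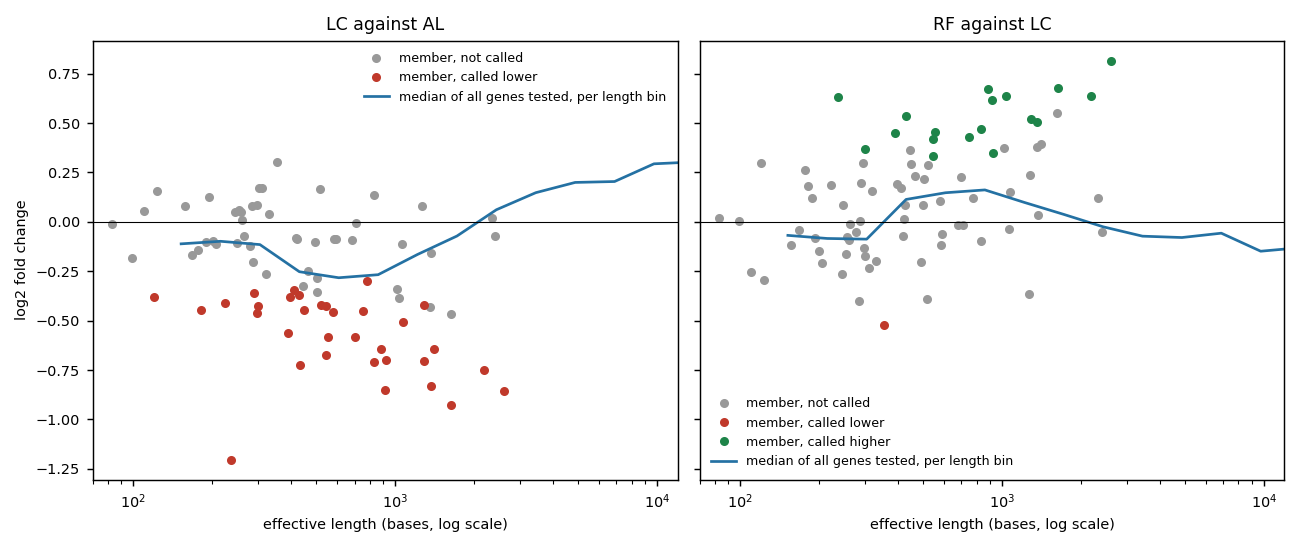
Log2 fold change of LC against AL and of RF against LC (vertical axes) against effective length (log scale) for the 81 tested members, with the median of all genes per length bin as a line. Apart from Ndufb4c and Ndufc2, the lowest values at LC and the highest at RF against LC belong to long members. The line for all genes runs from -0.28 to 0.30 at LC and from -0.15 to 0.16 at RF.

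Of the 33 calls, 9 held in every alternative that could be fitted, in scaling, tool, filter, unit, length correction and libraries. They were Ndufv2, Ndufs8, Ndufa10, Ndufc2, Ndufb4c, Sdhb, Sdhc, Uqcrc2 and Atp5c1, which touch complexes I, II, III and V. Ndufb4c could not be fitted with the length correction. Sdha was lost with log2(FPKM + 1) and no filter only, at an adjusted p of 0.055.

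Upstream sequence was read for 69 of the 87 members from RefSeq promoter windows of build GRCm38.p6, which is not the build of the files. Motifs of factors known to act on respiratory genes were searched as exact letters on both strands of the whole windows, 250 bases before to 50 after each start. The NRF1 letters GCATGCGC were in 13.5% of the members' 74 windows and 2.71% of all 32851 windows. The ETS letters CCGGAAG (GABPA, also called NRF2) were in 23.0% and 8.86%, the YY1 letters AAGATGGCG in 9.46% and 1.40%, and the ESRRA letters TCAAGGTCA in 2.70% and 0.423%. TATAAA was in 10.8% and 13.6%, and CCAAT in 40.5% and 37.4%. In the 30 windows of members called lower at LC and the 41 of tested members not called, NRF1 was in 16.7% and 12.2%, ETS in 30.0% and 19.5%, YY1 in 13.3% and 7.32%, and ESRRA in 0% and 4.88%. TATAAA was in 3.33% and 14.6% of them, and CCAAT in 43.3% and 39.0%. These shares are descriptions, and the difference between the classes was not tested. To show the same motifs before genes called lower and genes not called, the 150 bases before the start are printed for 3 members called lower (Sdhb, Ndufs3 and Ndufs8) and 3 not called (Ndufa6, Atp5k and Uqcr11), 5′ to 3′ on the gene's strand with the motif letters in capitals. They lie at chr4:140961121-140961270, plus strand, chr2:90904722-90904871, minus strand, chr19:3912775-3912924, minus strand, chr15:82354292-82354441, minus strand, chr5:108434400-108434549, minus strand and chr10:80406822-80406971, minus strand.
Sdhb: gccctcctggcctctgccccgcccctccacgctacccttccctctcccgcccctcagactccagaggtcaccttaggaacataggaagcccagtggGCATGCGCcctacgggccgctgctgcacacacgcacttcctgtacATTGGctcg
Ndufs3: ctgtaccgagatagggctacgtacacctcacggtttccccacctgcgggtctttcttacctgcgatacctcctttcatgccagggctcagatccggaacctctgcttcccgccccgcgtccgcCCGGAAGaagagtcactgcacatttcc
Ndufs8: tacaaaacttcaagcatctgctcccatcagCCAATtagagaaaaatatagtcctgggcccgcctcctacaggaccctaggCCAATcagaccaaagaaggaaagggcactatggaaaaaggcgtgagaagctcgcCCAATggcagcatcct
Ndufa6: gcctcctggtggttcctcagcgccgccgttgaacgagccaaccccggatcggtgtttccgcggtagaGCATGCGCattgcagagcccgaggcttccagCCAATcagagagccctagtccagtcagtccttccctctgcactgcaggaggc
Atp5k: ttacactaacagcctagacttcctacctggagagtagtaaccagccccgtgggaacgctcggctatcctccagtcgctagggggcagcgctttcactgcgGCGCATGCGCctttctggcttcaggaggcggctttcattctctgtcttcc
Uqcr11: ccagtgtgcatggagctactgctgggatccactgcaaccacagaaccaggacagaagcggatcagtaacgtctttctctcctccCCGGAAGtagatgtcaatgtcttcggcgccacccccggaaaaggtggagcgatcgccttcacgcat
Sdhb, Ndufa6 and Atp5k each hold the NRF1 letters, at -54, -83 and -50 from the start, and in Atp5k the letters overlap on both strands. Ndufs3 and Uqcr11 hold the ETS letters, at -27 and -66. Ndufs8 holds 3 CCAAT boxes and none of the 4 factor motifs in the printed stretch.

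On day 7, after free feeding, 18 of the 81 tested members were higher at RF than at LC and 1 was lower, beside 11.4% of all genes higher and 10.7% lower. The median was 0.12 over the members and -0.02 over all genes. The comparison uses the same LC libraries as the one above, so both are given as values side by side. With library totals alone 5 members were higher (Ndufv2, Sdha, Uqcrc2, Atp5c1 and Atp5pb) and 9 lower. The shares of all genes called under that setting are not given here. Leaving out any single RF library left 9 higher. Over the 10 fits that left out 1 library, 790 to 1601 of all 12789 genes were higher, beside 1452 in the full fit.

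All 4 subunits of complex II were higher at RF than at LC, and no other complex had all of its members called. The log2 fold changes were 0.82 for Sdha (SE 0.18, adjusted p = 0.00751), 0.64 for Sdhd (SE 0.17, adjusted p = 0.018), 0.47 for Sdhb (SE 0.14, adjusted p = 0.0249) and 0.35 for Sdhc (SE 0.12, adjusted p = 0.0472). Every RF library exceeded every LC library for each of the 4. The RF and LC groups did not overlap for 37 of the 81 tested members and for 34.1% of all genes tested. Sdha alone stayed called under every alternative, and with library totals alone it was the only one of the 4 called.

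Complex V had 5 of 17 tested members higher (29.4%, beside 11.4% of all genes) and a median of 0.23. Atp5pb led (log2 fold change 0.67, SE 0.14, adjusted p = 0.00642), then Atp5a1 (log2 fold change 0.64, SE 0.19, adjusted p = 0.0285), Atp5c1 (log2 fold change 0.62, SE 0.14, adjusted p = 0.00887), Atp5g1 (log2 fold change 0.45, SE 0.12, adjusted p = 0.0171) and Atp5j (log2 fold change 0.45, SE 0.11, adjusted p = 0.0128). Atp5b, with a log2 fold change of 0.55, was not called at an adjusted p of 0.116. In complex III 2 of 9 tested members were higher, Uqcrc2 (log2 fold change 0.68, SE 0.14, adjusted p = 0.00502) and Uqcrb (log2 fold change 0.37, SE 0.12, adjusted p = 0.0408). Complex IV had Cox7b as its only member called of 14 tested (log2 fold change 0.43, SE 0.11, adjusted p = 0.0172). Cox8a was not called (log2 fold change 0.30, SE 0.12, adjusted p = 0.0845).

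Complex I had 6 of 37 tested members higher (16.2%, beside 11.4% of all genes) and a median of 0.04, beside -0.02 over all genes. The 6 were Ndufv2 and Ndufs8 in the peripheral arm and Ndufa10, Ndufc2, Ndufa8 and Ndufb4c in the membrane arm. The Ndufa8 call was lost in 9 of the 10 fits that left out 1 library. Reads of Ndufb4c may be split with Ndufb4, and summed over the Ndufb4 genes the level was 108 ± 14.9 CPM at LC and 107 ± 5.36 CPM at RF. Ndufv2 had a log2 fold change of 0.52 and stayed called under every alternative. Ndufa10 and Ndufc2 had 0.51 and 0.54, and Ndufs8 had 0.42. The 1 member called lower was Ndufa2 (log2 fold change -0.52, SE 0.18, adjusted p = 0.0485), whose RF libraries lay at 104 to 111 CPM and whose LC libraries lay at 116 to 203 CPM. That call was lost in 8 of the 10 fits that left out 1 library. Ndufs3 stood at 137 to 138 CPM at RF, between the other groups, and was not called (log2 fold change 0.23, SE 0.11, adjusted p = 0.143).

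Against AL, RF had 0 of the 81 tested members called in either direction by edgeR, beside 0.0391% of all genes lower and 0.0156% higher. At an unadjusted p under 0.05 there were 9 members lower (11.1%) and 0 higher, beside 4.68% of all genes lower and 6.11% higher. DESeq2 called 1 member lower, Ndufs3, at a log2 fold change of -0.38 with an adjusted p of 0.0452, and limma voom called 0. A p that misses the threshold does not show that the levels were equal. The median was -0.15 over the members and 0.01 over all genes, and 70 of the 81 members lay below 0. Members ranged from -0.57 for Ndufb4c to 0.25 for Sdhd. The share of all genes below 0 is not given here. By effective length, all genes under 300 bases had a median of -0.17, beside -0.15 for members. At 300 to 600 bases the medians were -0.14 and -0.15, and at 600 bases or more 0.02 and -0.12. Genes of that last class reach 100303 bases and members 2610. In the fit corrected for length and GC content, all genes had a median of -0.026 and members -0.029. The part of length in this comparison was not tested further. With library totals alone the median of the members was -0.05.

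Other genes of the pathway moved at LC as well. Of 46 tested assembly factors for complexes I to V 25 were lower and 0 higher at LC against AL, with a median of -0.42. Among all genes tested 15.6% were lower and 16% higher, with a median of 0.05. Ndufaf1, which builds the membrane arm of complex I, had a log2 fold change of -1.12 (adjusted p = 0.000159). Tmem242 and Tmem70, which help build ATP synthase, had -0.99 and -0.79. At RF against LC 19 of the 46 were higher and 1, Uqcc3, was lower, beside 11.4% and 10.7% of all genes. Among 14 genes for cytochrome c and ubiquinone synthesis 4 were lower and 1 higher at LC. Cytochrome c itself, Cycs, had -0.45 (adjusted p = 0.0128) and Coq5 had -0.65, while Coq10a, a ubiquinone-binding protein, was higher at 0.52.

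Of 17 general mitochondrial genes 9 were lower and 0 higher at LC (beside 15.6% and 16% of all genes), with a median of -0.33. They included Letm1 (-0.70), a cation exchanger of the inner membrane, Timm23 (-0.60), a channel for protein import, and Vdac1 (-0.76), a pore of the outer membrane. Of 15 regulators of mitochondrial biogenesis 5 were higher, 1 was lower and 9 were not called, with a median of 0.26. Esrra, a nuclear receptor that acts on respiratory genes, was higher (log2 fold change 0.54, SE 0.13, adjusted p = 0.00668), as was Polrmt, the mitochondrial RNA polymerase (log2 fold change 0.44, SE 0.12, adjusted p = 0.0157). Ppargc1a, the coactivator PGC-1 alpha, was not called (log2 fold change -0.12, SE 0.24, adjusted p = 0.739). None of these 4 lists had a gene called by edgeR at RF against AL. Counts for these lists are given for the TMM scaling only.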

How the data were processed

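RNA sequencing of 10 liver samples was analysed, grouped by their labels as AL (n = 3), LC (n = 4) and RF (n = 3). Per gene and sample the authors deposited expected counts, which are model estimates (10.9% of values were not whole), and FPKM values, which divide by transcript length and depth. Per the submitters' processing notes, HISAT, Bowtie2 and the build GRCm39 were used, without versions or roles. Neither the counting program and its settings nor the gene annotation is given in the sources used here. Estimation can split reads between near-identical genes, and without strand overlapping genes cannot be told apart.

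Members were matched by symbol. Expected counts were rounded, filtered by expression (12789 genes tested), scaled with TMM factors and fitted with edgeR 4.0.16 (R 4.3.3, quasi-likelihood test, 1 mean per group, all 10 libraries). A gene was called at a Benjamini-Hochberg adjusted p under 0.05 over all genes tested. The procedure was tested on simulated data, and the outcome is not given here. Few genes were changed there, equally many up and down, so that test cannot decide between the scalings. CPM are counts scaled to library size with the TMM factors. Effective length came from counts and FPKM, and GC content from GENCODE transcripts for 98.5% of the genes tested. Library totals of 13871533 to 15899479 expected counts set the precision. Alternatives were DESeq2 1.42.0, limma 3.58.1 (voom with sample weights), other scalings, filters, log2(FPKM + 1) and log2(FPKM + 0.1), the compared groups alone, a replicate block, each library left out, and smooth trends on length and GC content removed (mgcv 1.9.3).

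The members, the related lists and the rule for named genes were chosen with earlier results of these data known. Named were the members with the smallest p in each complex, all of complex II, fixed core subunits and isoform groups, and the highest and lowest by FPKM. Other members were named to complete a group or as the pairs for ratios, after their values were seen. Promoter sequences are RefSeq's, build GRCm38.p6. Protein sequences are not used here. 1 member that the rule names is not reported here, and it remains in the counts and medians.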

Additional observations from a re-analysis of the deposited data

Results flagged for a closer look

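In 5 of the 81 tested members 1 of the 4 LC libraries lay far from the other 3, by the 95% critical value of Dixon's ratio of gap to range for 4 libraries. Chance flags about 1 in 20 groups. Ndufa6 was at 310 CPM (309.858) in LC replicate 4, above 241 to 248 CPM in the others. Ndufa1 was at 139.96 CPM in LC replicate 4, above 112 to 114 CPM. Atp5h was at 388 CPM in LC replicate 3, above 359.5 to 362 CPM. Atp5md was at 113 CPM in LC replicate 1, above 94.3 to 97.3 CPM. Atp5pb was at 205 CPM in LC replicate 1, below 251 to 252 CPM in the others.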

How the results depend on the processing

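At LC against AL 33 members were lower and 0 higher. Library totals alone gave 10 lower and 10 higher and a median (log2 fold change over the members) of 0.036. The log2(FPKM + 1) and log2(FPKM + 0.1) scales gave 11 lower, with 9 and 10 higher, and log2(FPKM + 1) with no filter gave 10 lower and 6 higher, all with a median of 0.026. Removing trends on length and GC content gave 14 lower and 5 higher with a median of -0.062. For RF against LC (18 higher, 1 lower, median 0.12) library totals alone gave 5 higher, 9 lower and -0.081, the FPKM scales 7 higher, or 5 with no filter, 11 lower and -0.061, and removing trends 12 higher, 3 lower and 0.029. DESeq2 and voom gave 3 lower each and the compared groups alone 2. For RF against AL (0 called, median -0.15) DESeq2 called 1 lower, and the median was -0.045 with library totals, -0.048 and -0.049 with the filtered FPKM scales, -0.057 with no filter and -0.029 without trends. DESeq2, voom, relative log expression size factors, both count filters and the compared groups alone left 30 to 38 lower at LC. The shares of all genes called under these settings are not given here, and the causes were not tested. Leaving out each library gave 21 to 37 members lower and a median of -0.31 to -0.20 at LC against AL. At RF against LC it gave 9 to 21 members higher and 0 to 3 lower. Over all genes those fits gave 1148 to 2158 lower at LC against AL. At RF against LC they gave 790 to 1601 of all genes higher and 643 to 1546 lower. The labels do not say whether replicate numbers pair samples. Same-numbered libraries deviated with correlations of -0.05 to 0.25, and differently numbered ones with -0.21 to 0.117. The highest, 0.252 and 0.185, were between LC and RF replicate 1 and between LC and RF replicate 2, so pairing was not settled. A fit with the replicate as a block gave 33 lower at LC against AL. At RF against LC the block gave 21 higher and 0 lower, beside 18 and 1 without it. The filter on low counts left 6 isoforms untested.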
